A study of Rattus norvegicus with 10 samples.

Results

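The regions described here are places in the rat genome where SOX9 and SOX6 sites lie close together in RCS, a cell line derived from a cartilage tumour, rat chondrosarcoma. Overlapping SOX9 and SOX6 peaks were merged into sites, so that a place bound by both factors counted once, and neighbouring sites were joined across gaps of up to the joining distance, which left gaps of at most 12496 bp inside groups. A group was kept when it held 4 or more sites. This gave 784 groups among 17215 single sites and groups, with 4106 of the 25523 sites (16.1%, 95% Wilson interval 15.6% to 16.5%). The groups were chosen by the positions of the SOX9 and SOX6 peaks, so the number of groups, the classes of site and the spacing below are a description.

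SOX9 is a transcription factor of the SOXE family that directs the fate and differentiation of chondrocytes, the cells of cartilage. SOX6 belongs to the SOXD family, lacks a known activation domain of its own and acts with SOX9 on cartilage genes. Both bind DNA through an HMG box, and clusters of binding sites for such factors are a known feature of strong enhancers in differentiated cells.

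Chromatin immunoprecipitation with sequencing was carried out with antibodies to SOX9, SOX6 and the histone modifications H3K27ac, H3K4me1, H3K4me3 and H3K9me3, with 1 library each, beside 4 inputs without antibody (36873004 to 131858579 reads). The labels name no treatment or genotype, so RCS cells as cultured are the only group, and RCS is a single tumour line. H3K27ac marks active promoters and enhancers, H3K4me1 mainly enhancers, H3K4me3 mainly promoters and H3K9me3 heterochromatin. Without replicates no difference below has a replicate error or a test. The intervals cover counting error, and neighbouring sites are not independent. Coordinates are on the build rn5, counted from 1, and genes were not assigned.

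The groups were mostly small and mixed. Of the 784 groups, 402 held 4 sites, 167 held 5, 182 held 6 to 9 and 33 held 10 or more, with 22 sites in the largest. The median group was 16.3 kb long (quartiles 10.97 and 22.9 kb, range 1.22 to 83.8 kb), and SOX sites took up a median of 18.2% of its length. The groups took in 2446 of the 14782 SOX9 peaks (16.5%) and 3413 of the 19355 SOX6 peaks (17.6%). At the edge of the rule, 986 sets of sites stopped at 3 sites and 402 groups had just 4. The widest gap inside a group was 12496 bp, and the narrowest gap beside a group that was not joined was 12574 bp.

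Co-bound sites made up 1654 of the grouped sites, SOX9-only sites 770 and SOX6-only sites 1682. The co-bound share was 40.3% (38.8% to 41.8%), against 32.4% of all sites and 30.8% (30.2% to 31.5%) of the sites outside groups. SOX9-only sites took 18.8% (17.6% to 19.98%) in groups and 26.5% outside, and SOX6-only sites 41.0% and 42.6%. Groups therefore held 20.03% of all co-bound sites, 15.6% of the SOX6-only sites and 11.9% of the SOX9-only sites. A co-bound site in a group held 1 peak of each factor in 94.4% of cases, while 4.23% had 1 SOX9 peak over 2 or more SOX6 peaks. The centres of the 1562 such single pairs lay a median of 49 bp apart, against 51 bp at the 6363 outside groups.

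The co-bound share went from 27.04% of single sites to 35.5% in groups of 2, 37.4% in groups of 3, 39.4% in groups of 4 and 42.0% in groups of 5. It was 41.2% (38.5% to 43.9%) in groups of 6 to 9 and 37.3% (32.8% to 42.1%) in groups of 10 or more, so the intervals of all 4 sizes of group from 4 sites upward overlapped. SOX9-only sites went the other way, from 29.8% of single sites to 16.2% (12.95% to 20.1%) in groups of 10 or more. The SOX6-only share was 43.1% of single sites and 46.4% (41.6% to 51.3%) in the largest groups.

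**Figure D1:**
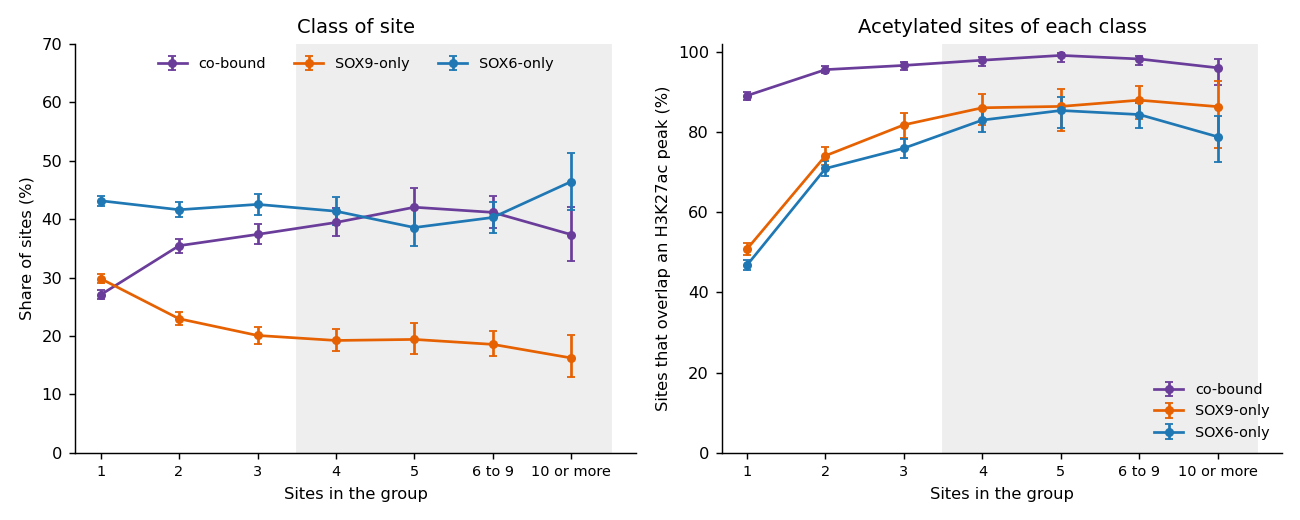
Share of sites in each class (left, percent) and share of the sites of each class that overlap an H3K27ac peak (right, percent), by the number of sites in the group; points are single values from 1 library per antibody, bars are 95% Wilson intervals, and the grey area holds the groups of 4 or more. Acetylation of single-factor sites goes from 50.8% (SOX9-only) and 46.8% (SOX6-only) at single sites to 86.1% and 83.0% in groups of 4. In between it is at 74.1% and 70.9% in groups of 2 and at 81.8% and 76.0% in groups of 3.

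Nearly all groups held both factors, and few held sites of a single class. Both factors were present in 757 of 784 groups (96.6%), and all 3 classes of site in 360 (45.9%). Co-bound sites with SOX6-only but no SOX9-only sites were found in 255 groups (32.5%), and the reverse, co-bound with SOX9-only but no SOX6-only sites, in 71 (9.06%). A group had 2 or more co-bound sites in 505 cases, 1 in 190 and none in 89, of which 62 still had both factors at separate sites. Every site was co-bound in 9 groups, SOX6-only in 26 and SOX9-only in 1. A group with more sites has more places for each class. Every site was co-bound in 14.0% of groups of 2, 6.29% of groups of 3 and 1.74% of groups of 4. No site was co-bound in 43.1%, 26.4% and 16.4% of them. How far the number of sites accounts for the mixing was not tested. Among the 402 groups of 4, the commonest make-up was 2 co-bound sites, 1 SOX9-only and 1 SOX6-only (64 groups), followed by 2 co-bound with 2 SOX6-only and 1 co-bound, 1 SOX9-only and 2 SOX6-only (50 each).

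Pooled over all groups, the order of the classes showed little pattern beyond runs of SOX6-only sites. The neighbours of co-bound sites were co-bound in 42.8% of cases (40.9% to 44.7%), the neighbours of SOX9-only sites in 42.5% (39.7% to 45.3%) and those of SOX6-only sites in 38.1% (36.3% to 39.9%). The neighbours of SOX6-only sites were SOX6-only in 45.3% (43.4% to 47.2%), against 38.1% for co-bound and 36.9% for SOX9-only sites. These shares pool all groups, so they also carry differences in make-up between groups, 26 of which held SOX6-only sites alone. With SOX peaks above the median score, the neighbours of co-bound sites were co-bound in 52.6%, against a co-bound share of 44.7%. Groups of 4 showed 77 different orders, the commonest of which were 4 SOX6-only sites in a row (20 groups) and a co-bound site at the second of 4 places among SOX6-only sites (15 groups). By place in the groups of 4, co-bound sites filled 38.3%, 42.0%, 38.1% and 39.3% of the places from low to high coordinates, with intervals that overlap. Over all groups the co-bound share was 38.1% (35.7% to 40.5%) at the ends and 41.6% (39.7% to 43.6%) inside. H3K4me3 lay at 45.2% (42.8% to 47.7%) of the end sites and 50.4% (48.4% to 52.3%) of the inner sites, and H3K4me1 at 81.6% and 78.4%.

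The highest-scoring peak of a group was usually at a co-bound site. In the 431 groups with both co-bound and SOX9-only sites, the SOX9 peak with the highest score lay in a co-bound site in 383 (88.9%). In the 615 groups with both co-bound and SOX6-only sites, the highest SOX6 peak did so in 514 (83.6%). Over all groups, sites with a SOX9 peak were 1654 co-bound and 770 SOX9-only. Those with a SOX6 peak were 1654 co-bound and 1682 SOX6-only. How far these numbers of sites account for the shares was not tested. The highest peaks of both factors shared a site in 395 of 757 groups (52.2%), so in the other groups they lay at different sites. Grouped co-bound sites had a median SOX9 score of 156 and SOX6 score of 228, against 66.5 at SOX9-only and 83.4 at SOX6-only sites. Outside groups the medians were 151 and 197 at co-bound, 63.3 at SOX9-only and 75.03 at SOX6-only sites. The score is the authors' own value per peak, on a scale that is not given, and is compared here only within each list.

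Neighbouring sites in groups were separated by a median gap of 2.07 kb (quartiles 327 and 6021 bp) over 3322 gaps. Of these gaps 1283 (38.6%) were under 1 kb and 276 (8.31%) over 10 kb. Pairs of SOX6-only sites lay closest, with a median gap of 1.31 kb and 45.4% under 1 kb. Pairs of a SOX9-only and a SOX6-only site lay farthest apart, with a median of 2.84 kb and 28.8% under 1 kb. Co-bound pairs had a median gap of 2.10 kb and co-bound sites were 1.81 kb from a SOX6-only and 2.35 kb from a SOX9-only neighbour. Where a group had a co-bound site, its SOX6-only sites lay a median of 3886 bp and its SOX9-only sites 4756 bp from the nearest co-bound centre. The order of closest and farthest pairs was the same in groups of 2 or 3 sites, at 1.77 kb and 4.08 kb.

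Peaks that lie close without touching count as separate sites under this rule. With sites within 500 bp of each other taken as 1, an alternative chosen after the data were seen, 446 groups of 4 or more remained and the co-bound share in them was 46.1%. The number was 362 at a joining distance of 5 kb, 1313 at 25 kb and 198 when only SOX peaks scoring above their list's median were used.

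**Figure D2:**
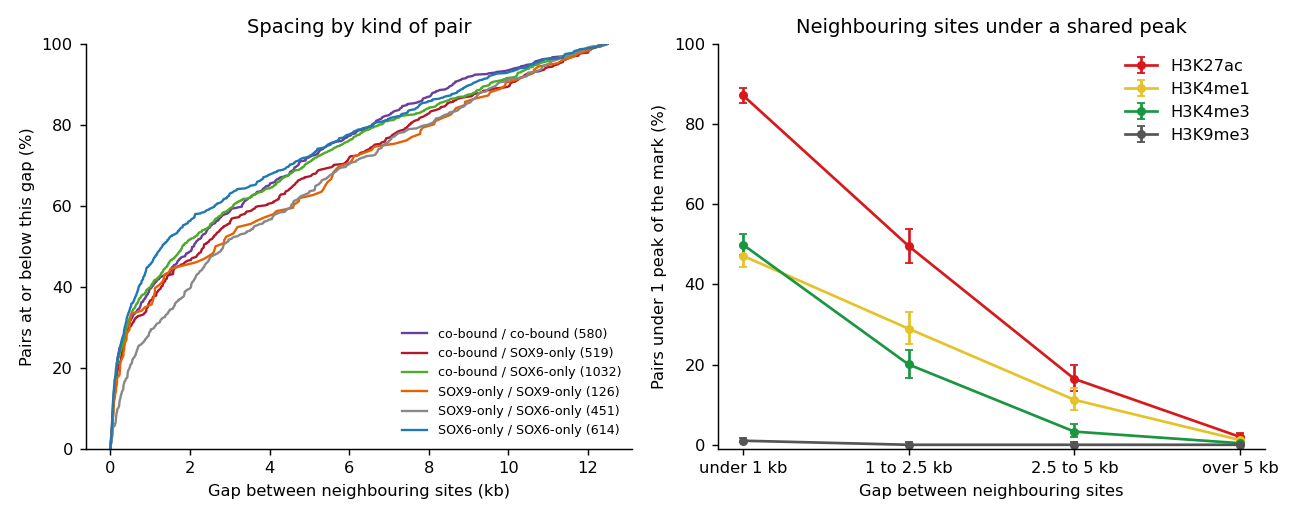
Left, the share of neighbouring pairs (percent) at or below each gap in kb, for the 6 kinds of pair in groups of 4 or more, with the number of pairs in brackets. Right, the share of neighbouring pairs (percent, with 95% Wilson intervals) that lie under the same peak of each mark, by gap: 87.2% of pairs under 1 kb apart share an H3K27ac peak and 1.96% of those over 5 kb apart.

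The histone marks took no part in choosing the groups. H3K27ac lay over 3694 of the 4106 grouped sites (90.0%, 89.0% to 90.8%), against 72.3% of all sites and 68.9% (68.2% to 69.5%) outside groups. H3K4me1 lay over 79.6% of grouped sites (78.4% to 80.8%), with 70.3% of all sites and 68.6% outside. The sites outside pool single sites with groups of 2 and 3, which differed. H3K4me1 lay over 62.4% of single sites, 75.9% of sites in groups of 2 and 79.6% in groups of 3. The value in groups of 3 lies within the interval of the grouped sites, and groups of 10 or more had 73.2%. For H3K27ac the shares at single sites and in groups of 2 and 3 were 59.45%, 80.4% and 84.9%. H3K4me3 lay over 48.4% (46.9% to 49.9%), with 37.9% of all sites and 35.8% outside. It lay over 31.7% of single sites, 40.1% of sites in groups of 2 and 44.6% in groups of 3. H3K9me3 was rare, at 4.31% (3.73% to 4.98%), with 3.39% of all sites and 3.21% outside. Without the 4 chromosomes with most input reads per Mb it was 2.98% (2.44% to 3.64%) in groups and 2.55% outside, which lies within that interval. Sites without a peak of any of the 4 marks made up 4.14% of the grouped sites (3.57% to 4.79%), against 15.0% of all sites and 17.0% outside. Acetylated sites with H3K4me1 but no H3K4me3, the usual signature of distal enhancers, made up 40.7% of grouped sites, 34.0% of all sites and 32.7% outside. At co-bound sites alone this share was 43.5% (41.1% to 45.9%) in groups and 49.5% (48.3% to 50.7%) outside. Acetylated sites with H3K4me3 made up 47.4% of grouped sites, 36.4% of all sites and 34.3% outside.

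All 3 classes of site were acetylated more often in groups than outside. Co-bound sites outside groups were already near the ceiling, so the differences in percentage points cannot be ranked between classes. At co-bound sites H3K27ac was at 98.1% (97.4% to 98.7%) in groups and 92.5% (91.8% to 93.1%) outside. At SOX9-only sites the shares were 86.8% (84.2% to 89.0%) and 59.7% (58.5% to 61.0%), and at SOX6-only sites 83.4% (81.6% to 85.1%) and 57.5% (56.4% to 58.5%). H3K4me3 was more frequent in groups for all 3 classes, at 52.9% and 41.4% of co-bound, 46.1% and 33.0% of SOX9-only and 45.1% and 33.6% of SOX6-only sites. H3K4me1 was more frequent in groups at SOX9-only sites (73.5% and 54.6%) and SOX6-only sites (74.4% and 62.0%). In groups of 3 it was already at 73.9% of SOX9-only and 72.8% of SOX6-only sites. At co-bound sites it was at 87.8% (86.2% to 89.3%) in groups and 89.7% (88.9% to 90.4%) outside, with intervals that overlap.

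Sites in groups were slightly wider and higher in score, with median widths of 475 and 408 bp at SOX9-only and 398 and 379 bp at SOX6-only sites in and outside groups. Within quintiles of the SOX9 score, the acetylated share of SOX9-only sites was higher in groups in 5 of 5, from 80.9% and 39.8% in the lowest quintile to 100% of 24 sites (86.2% to 100%) and 90.3% (83.8% to 94.4%) in the highest, where the intervals overlap. For SOX6-only sites it was also higher in 5 of 5, with 73.8% and 40.2% in the lowest quintile and 82.2% (74.9% to 87.7%) and 80.6% (77.1% to 83.7%) in the highest, where they overlap as well. H3K4me1 at SOX6-only sites was higher in groups in only 3 of 5 quintiles, with 76.3% in groups and 76.8% outside in the fourth and 68.2% (59.9% to 75.4%) and 72.3% (68.4% to 75.9%) in the highest. At co-bound sites it was 87.7% (85.1% to 89.9%) in groups and 92.9% (91.8% to 93.8%) outside in the highest SOX6 quintile. In the fourth SOX9 quintile it was 87.3% (83.7% to 90.2%) and 91.6% (90.3% to 92.8%), while in the highest SOX9 quintile it was 92.8% and 92.7%. In the third quintile of either score and the fourth SOX6 quintile it was also lower in groups. The third SOX9 quintile had 80.7% (76.1% to 84.6%) and 86.1% (84.05% to 87.9%). In the first and second quintiles of either score it was higher in groups. The second SOX6 quintile had 88.8% (83.0% to 92.8%) and 84.0% (81.2% to 86.5%). The stretch of groups on chromosome 8 described below was then left out, a choice made after the data were seen. Without it, H3K27ac lay at 88.1% (81.3% to 92.7%) of SOX6-only sites in groups in the highest SOX6 quintile. This interval still overlaps that of the sites outside (77.1% to 83.7%). All 9 sites removed from that quintile lacked H3K27ac, so the share could only rise. Width was not matched, and its part in these differences was not tested.

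**Figure D3:**
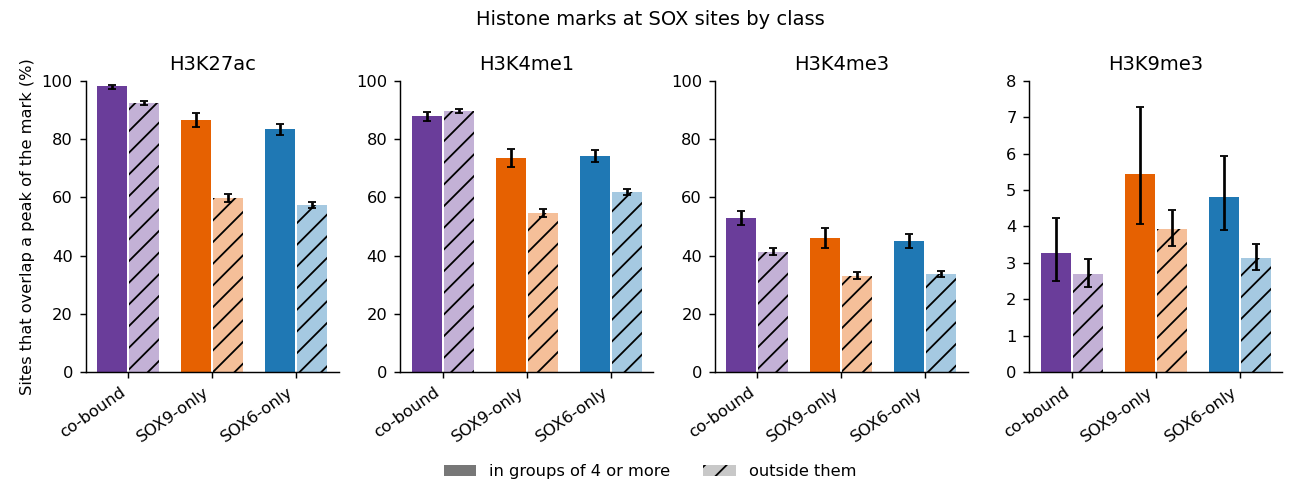
Share of sites (percent, bars from 0, with 95% Wilson intervals) that overlap a peak of each mark, for co-bound, SOX9-only and SOX6-only sites in groups of 4 or more (full colour) and outside them (pale, hatched); the H3K9me3 axis ends at 8%. Acetylated SOX9-only sites are at 86.8% in groups and 59.7% outside, while H3K4me1 at co-bound sites is at 87.8% and 89.7%.

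The peaks of active marks over grouped sites had larger median widths, and those of H3K27ac and H3K4me1 more often had high scores in all 3 classes. The H3K27ac peak over an acetylated grouped site had a median width of 3452 bp, against 2184 bp outside, and 69.9% of such sites lay under an H3K27ac peak with the authors' score of 3100 or more, against 43.9%. For H3K4me1 the median widths were 2254 and 1669 bp, and the shares at that score 22.0% and 5.53%. For H3K4me3 they were 2478 and 1841 bp, and 54.5% and 50.2%. The H3K4me3 shares were 42.3% and 31.8% at co-bound sites and 65.0% and 58.2% at SOX6-only sites. At SOX9-only sites they were 61.97% in groups and 64.1% outside. The median percentile rank of the H3K4me3 score was 78.4 in both sets. This is the rank of the 9687 of 23116 H3K4me3 peaks tied at 3100, so it cannot tell the sets apart. Wide peaks can lie over several sites of a group, so these sites share their marks.

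Acetylation covered sites much more fully than the gaps between them. H3K27ac peaks covered 92.6% of the sequence under grouped sites and 46.0% of the 11.6 Mb in the gaps, against 86.7% and 31.5% in groups of 2 or 3. H3K4me1 covered 74.7% of the sites and 47.0% of the gaps, H3K4me3 49.9% and 11.6%, and H3K9me3 3.39% and 6.28%. A gap was covered by H3K27ac from end to end in 44.4% of cases and held no H3K27ac at all in 4.36%. Neighbours under 1 kb apart shared an H3K27ac peak in 87.2% of cases, those 1 to 2.5 kb apart in 49.6% and those 2.5 to 5 kb apart in 16.4%.

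Marks differed between sites of the same group. H3K27ac was at every site in 532 groups (67.9%, 64.5% to 71.0%), at some in 245 and at none in 7. The share with every site acetylated was 68.9% in groups of 2 and 67.7% in groups of 3, though a larger group has more sites that could lack the mark. H3K4me1 was at every site in 367 groups and at none in 22. H3K4me3 was at every site in 108 groups (13.8%), at some but not all in 540 (68.9%) and at none in 136 (17.3%).

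H3K4me3 tended to lie at neighbouring sites. The neighbours of sites with H3K4me3 had it in 70.8% of cases (69.2% to 72.3%) and those of sites without it in 28.3% (26.8% to 29.8%). At gaps under 1 kb the shares were 88.0% and 19.1%, and at gaps over 5 kb 46.5% (43.0% to 50.1%) and 31.9% (29.4% to 34.5%). Much of this comes from single peaks counted at both sites. H3K4me3 lay at both sites of 1156 of the 3322 neighbouring pairs, of which 763 lay under the same H3K4me3 peak. Groups of 2 or 3 had a like contrast, with 65.3% and 25.5% over all gaps. In the 540 partly marked groups, the H3K4me3 sites formed 1 unbroken run in 378, and 267 of these runs reached an end of the group. In 151 of the 378 only 1 site had the mark, which is a run by definition. Grouped sites with H3K4me3 were co-bound in 44.0% (41.9% to 46.2%) and those without it in 36.8% (34.7% to 38.9%). Outside groups the direction was the same, at 35.6% and 28.2%.

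The groups with H3K4me3 at every site and the groups with none differed in build. Both sets were chosen by the mark, which is tied to spacing. Over all groups, 49.96% of neighbouring pairs under 1 kb apart lay under the same H3K4me3 peak, and 0.393% of those over 5 kb. How far this choice accounts for the differences in length, gaps and H3K27ac cover was not tested. The 108 fully marked groups were a median of 10.7 kb long with gaps of 536 bp, and H3K27ac peaks covered 79.2% of the median group. The 136 groups without H3K4me3 were 15.2 kb long with gaps of 2196 bp, and H3K27ac covered 49.5%. Their sites carried H3K4me1 in 58.2% (53.9% to 62.4%) and 85.0% (82.0% to 87.5%) of cases, respectively. The co-bound share was 36.2% (32.2% to 40.4%) in the fully marked groups and 39.4% (35.7% to 43.3%) in those without the mark, with intervals that overlap.

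**Figure D4:**
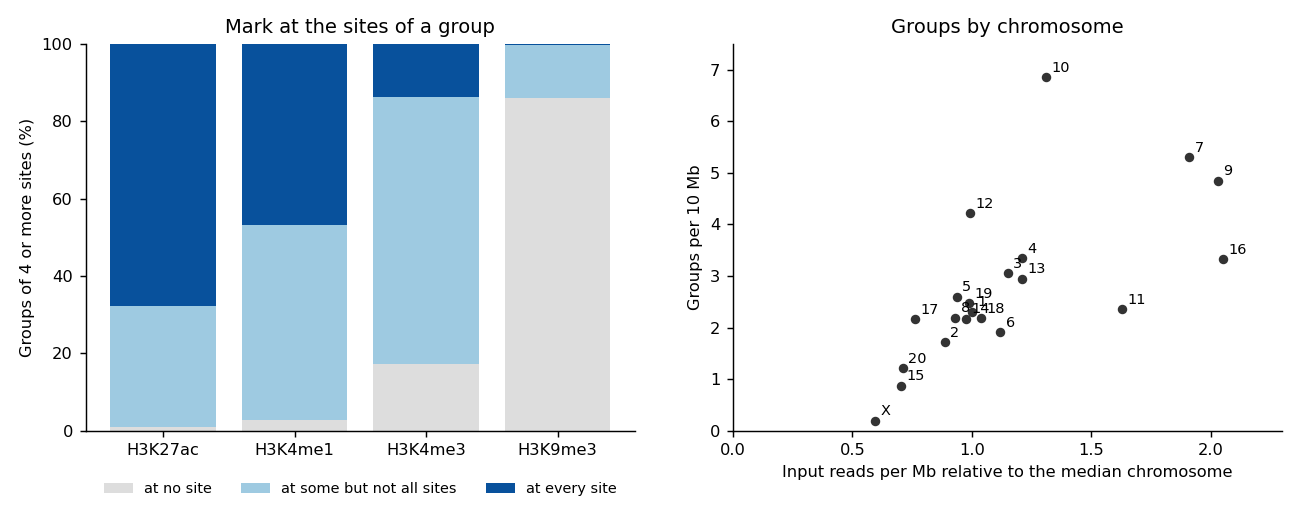
Left, the share of the 784 groups (percent, stacked to 100) in which each mark lies at no site, at some sites or at every site: H3K27ac is at every site in 67.9% and H3K4me3 in 13.8%. Right, groups per 10 Mb for each chromosome against its input reads per Mb relative to the median chromosome, both linear axes from 0; chromosome 10 is highest at 6.86 and X lowest at 0.194 groups per 10 Mb.

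The groups with most sites differed widely in their marks. The 10 largest held 158 sites, of which 52 were co-bound. All 3 classes were present in 8 of the 10, H3K27ac lay at every site in 3, H3K4me3 at some site in 9 and H3K9me3 at no site in 9.

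The largest group lay at chr9:29242722-29323280 and held 22 sites in 80.6 kb, with 8 co-bound, 3 SOX9-only and 11 SOX6-only sites. All 22 sites were acetylated and 20 carried H3K4me1. H3K4me3 lay at the first 9 sites and again at the site numbered 17, with none at the other sites. The co-bound site numbered 17, 3074 bp wide, had the highest SOX9 score of the group (2893), and the co-bound site numbered 14 the highest SOX6 score (2492). The widest site, number 9, spanned 6043 bp. The 3 SOX9-only sites scored 52.8, 58.8 and 79.3, and the 8 co-bound sites from 65.9 to 2893.

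Of the 10 largest, 4 groups on chromosomes 17 and 2 were rich in H3K4me3 and poor in H3K4me1. At chr17:45665523-45708133, 16 sites lay in 42.6 kb, with H3K4me3 at 15, H3K27ac at 11 and H3K4me1 at 6. At chr17:45755708-45800893, the next group along, 11 of 16 sites were SOX6-only, and H3K4me3 lay at 14, H3K27ac at 13 and H3K4me1 at 4. The group at chr2:217974481-218033886 had 16 sites with H3K4me3 at 11, H3K27ac at 10 and H3K4me1 at 6, and began with 5 SOX6-only sites in a row, of which the first 4 lacked H3K27ac. The group at chr2:218096984-218126699 had 15 sites, 8 of them co-bound and 5 of these in a row, with H3K4me3 at 11, H3K27ac at 13 and H3K4me1 at 5. In these 4 groups H3K27ac covered 20.8% to 44.6% of the length.

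H3K4me1 lay at most sites of another 4 of the 10 largest groups. The longest, at chr4:198304000-198387813, spread 15 sites over 83.8 kb with a median gap of 5124 bp. It held 8 co-bound sites, with H3K4me1 at 14 sites, H3K27ac at 12 and H3K4me3 at only 1. At chr1:258333164-258396971, 15 sites in 63.8 kb had H3K27ac and H3K4me1 at 13 each and H3K4me3 at 2. At chr4:64746975-64809318, 9 of 14 sites were SOX6-only and none SOX9-only, all 14 were acetylated, 13 carried H3K4me1 and 6 H3K4me3, and H3K27ac covered 77.8% of 62.3 kb. At chr1:141701972-141765386, all 14 sites carried both H3K27ac and H3K4me1, and 7 carried H3K4me3. This group had 6 SOX9-only sites, 4 of them in a row, and those 4 also carried H3K4me3, while H3K9me3 overlapped 1 SOX6-only site. Its first site was co-bound with a SOX9 score of 2633 and a SOX6 score of 1022.

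**Figure D5:**
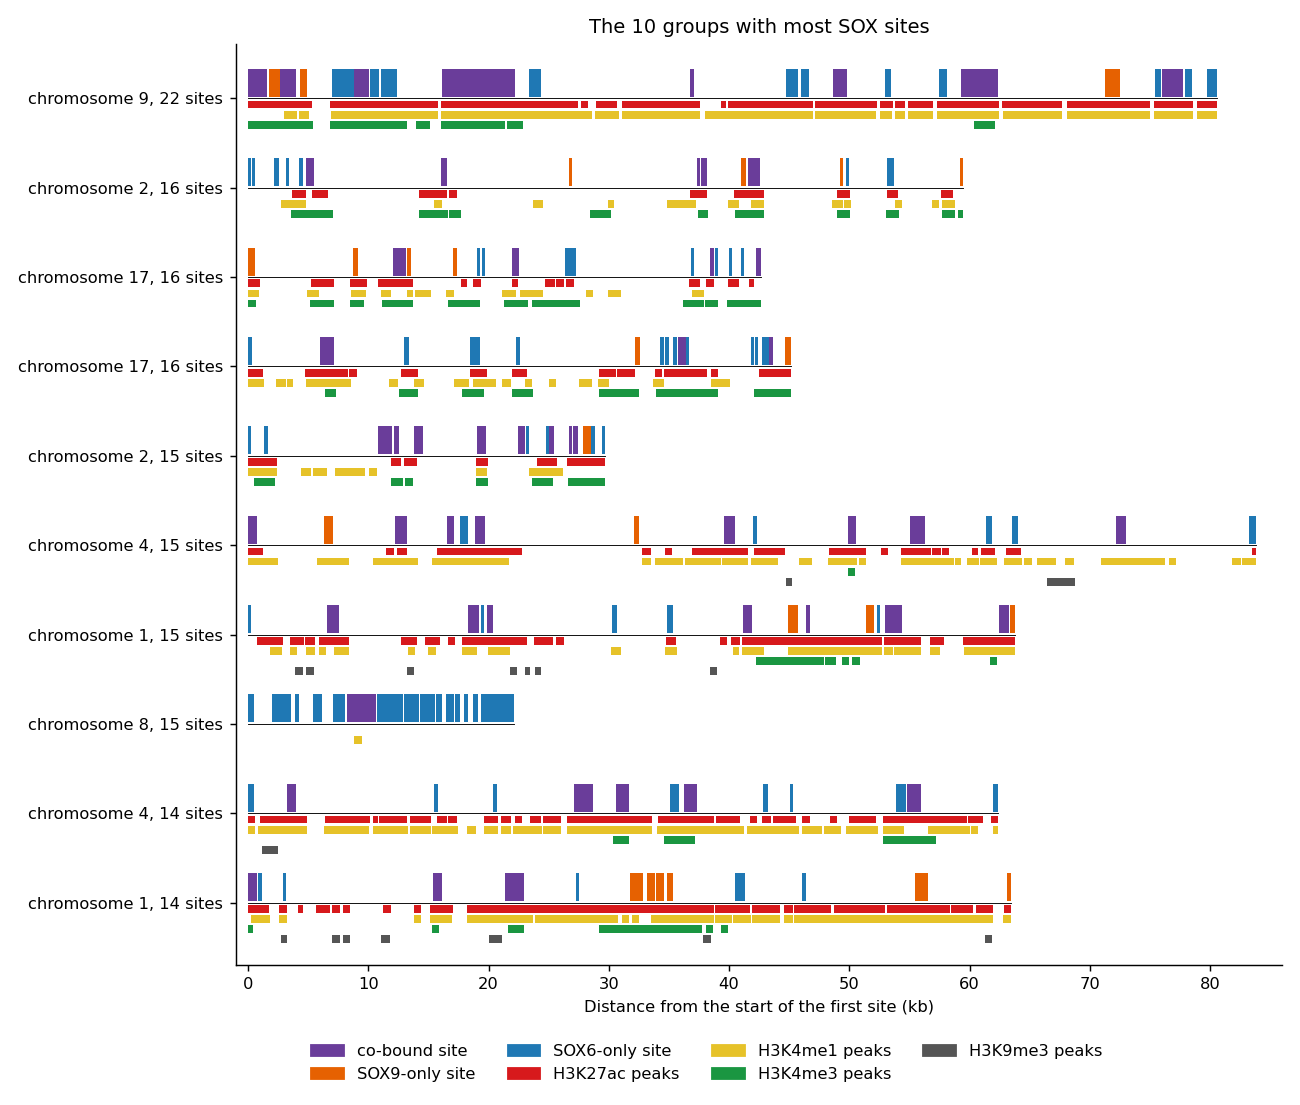
Maps of the 10 groups with most sites, to scale, with distance from the start of the first site in kb; above each line the sites are coloured by class (sites narrower than 0.25 kb are drawn at that width), and below it lie the peaks of H3K27ac, H3K4me1, H3K4me3 and H3K9me3. The group on chromosome 8 has 15 sites over 22.2 kb with no H3K27ac peak, while H3K27ac covers 91.0% of the group on chromosome 9.

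Among the 10 largest groups, only that on chromosome 8 had no acetylated site. At chr8:6266840-6288998, 15 sites lay in 22.2 kb, 14 of them SOX6-only and 1 co-bound, and the sites took up 74.4% of the length. The gaps had a median of 281.5 bp. The SOX6 scores ran from 110.9 to 268.4 at the first 5 sites and from 506.5 to 3100 at the sites numbered 6 to 15, with 3100 at both 9 and 15. The only SOX9 peak scored 61.4. H3K27ac, H3K4me3 and H3K9me3 lay at no site and H3K4me1 at 1. With 3 neighbouring groups it formed a stretch at chr8:6022386-6288998 with 38 sites, of which 33 were SOX6-only and 8 acetylated. The input counts are per chromosome, and chromosome 8 as a whole was at 0.931 of the median chromosome, so the input level of this stretch was not tested.

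SOX6-only sites made up most sites of the groups with no acetylated site. The 7 groups with H3K27ac at no site held 43 sites, of which 39 were SOX6-only. Of these 39 sites, 14 lay in the group on chromosome 8 described above. SOX9-only sites were absent from 6 of the 7 groups, but such absence was common. Among all 784 groups they were absent from 255 with co-bound and SOX6-only sites, 26 with SOX6-only sites alone and 9 with co-bound sites alone. SOX6-only sites made up 41.0% of all grouped sites, and they were the class least often acetylated in groups (83.4%). At chr2:182712026-182727558, all 6 sites were SOX6-only and 5 overlapped H3K9me3, with no active mark. The SOX6 scores there were 54.4, 126.5, 215, 740, 1248 and 57.9 from low to high coordinates. At chr14:46744031-46748442, all 4 sites overlapped H3K9me3, and 3 were SOX6-only. At chr17:58793701-58804192, 5 of 6 SOX6-only sites carried H3K4me3 without H3K27ac. The other 3 lay at chr4:4121011-4123918, chr4:206305462-206309722 and chr10:83752332-83759423, with 4 sites each. The 2 on chromosome 4 were dense and without active marks, like the group on chromosome 8. Their sites took up 75.45% and 57.9% of the length, with median gaps of 263 and 674 bp. In the group on chromosome 10, H3K27ac covered 28.6% of the length without touching a site. All 360 groups with 3 classes had H3K27ac at 2 or more sites. The 3 with most sites among those with just 2 lay at chr1:211870845-211917261 and chr7:14446052-14465913, with 5 sites each, and at chr4:7631395-7654804, with 4.

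The named groups of a single class differed in how fully they were acetylated. At chr12:19270498-19276113, 5 co-bound sites lay in 5.62 kb, all with H3K27ac, H3K4me1 and H3K4me3, although the SOX9 scores were only 52.1 to 197 and the SOX6 scores 64.9 to 126. At chr19:50423949-50442941, 5 co-bound sites in 18.99 kb were all acetylated and 1 carried H3K4me3. At chr9:44612116-44623040, 4 co-bound sites lay under unbroken H3K27ac and H3K4me1 over 10.9 kb. The largest SOX6-only group, at chr16:1724884-1744408, had 8 acetylated sites, with H3K4me3 at the first 4 and a SOX6 score of 802.5 at the first. Another, at chr7:12361097-12380533, had 6 sites, of which 5 were acetylated. The only SOX9-only group, at chr13:78116495-78132422, had 4 sites with scores of 55.3 to 106.5, of which 2 were acetylated. The shortest group, at chr3:18328663-18329879, packed 4 sites into 1217 bp under unbroken H3K27ac, with a co-bound site between SOX6-only sites.

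H3K9me3 reached 109 groups (13.9%, 11.7% to 16.5%), at a single site in 73 and at 3 or more sites in 19. Grouped sites with H3K9me3 were co-bound in 30.5% (24.2% to 37.6%) and those without it in 40.7% (39.2% to 42.3%). Of the grouped sites with H3K9me3, 76.8% (70.1% to 82.4%) were also acetylated, against 90.6% (89.6% to 91.4%) of those without it. The directions were the same outside groups, with co-bound shares of 25.9% and 31.0% and acetylated shares of 57.6% and 69.2%. The neighbours of sites with H3K9me3 had it in 32.3% (27.2% to 37.9%), and those of sites without it in 3.10% (2.70% to 3.56%). In groups of 2 or 3 these shares were 29.3% and 2.56%. The group with most H3K9me3 sites lay at chr7:26856695-26889019, where 7 of 9 sites overlapped it. All 9 also overlapped H3K27ac and H3K4me1, and H3K9me3 peaks covered 66.2% and H3K27ac peaks 85.6% of its length. The next group on that side, at chr7:26816793-26842341, had 13 sites, all acetylated, with H3K9me3 at 5. Its site numbered 10 was co-bound with a SOX9 score of 2146 and a SOX6 score of 2849, and carried no H3K9me3.

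Groups were uneven among the chromosomes, and so was the input. Exactly matching input reads per Mb, averaged over the 4 inputs and relative to the median chromosome, stood at 2.05 for chromosome 16, 2.03 for 9, 1.91 for 7 and 1.63 for 11. These 4 held 187 of the 784 groups (23.9%) on 15.5% of the length. They also held 22.1% of all SOX sites, which lies within the 95% interval of the groups' share. The density was highest on chromosome 10, with 6.86 groups per 10 Mb at an input of 1.31. Chromosome 7 had 5.30, chromosome 9 had 4.85, and chromosome 12, at an input of 0.994, had 4.22. X, at 0.595 of the median input, had 3 groups. Across the 21 chromosomes the density of groups and the input had a Pearson r of 0.658 and a Spearman rho of 0.804, given as a description, since the libraries are shared and gene content was not used.

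H3K9me3 and H3K4me1 differed most between the 4 chromosomes and the others. Grouped sites were co-bound in 43.5% (40.4% to 46.6%) on the 4 chromosomes and 39.3% (37.6% to 41.0%) on the others, and they were acetylated in 91.7% (89.8% to 93.2%) and 89.4% (88.3% to 90.4%). H3K9me3 lay at 8.52% (6.93% to 10.4%) and 2.98% (2.44% to 3.64%) of them, and chromosome 16 had the highest share of H3K9me3, 12.9%. H3K4me1 lay at 86.5% (84.2% to 88.5%) and 77.5% (76.0% to 78.9%). By chromosome, H3K27ac at grouped sites was lowest on 8, at 72.9%, and 17, at 73.5%. Outside the stretch described above, the other 117 grouped sites of chromosome 8 were acetylated in 89.7% (82.9% to 94.0%). The part of the input level in these differences was not tested.

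Groups also lay near one another. Another group lay within 100 kb in 212 of the 784 (27.04%), which formed 89 stretches, 22 of them with 3 or more groups. At chr2:217865783-218176413, 5 groups with 43 sites lay in 311 kb, with H3K4me3 at 34 and H3K27ac at 35. At chr7:26816793-27060710, 5 groups with 37 sites had H3K27ac at 35 and H3K9me3 at 18. At chr10:74004286-74204877, 5 groups held 33 sites, 16 of them co-bound and 2 SOX9-only, with H3K27ac at 30. At chr3:115872141-116100721, 4 groups held 30 sites, all acetylated, with H3K4me1 at all 30, H3K4me3 at 2 and H3K9me3 at 10.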

How the data were processed

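Per the labels, 6 libraries are immunoprecipitations and 4 are inputs. The authors deposited 1 peak list per immunoprecipitation, with peak names that carry the name MACS and a score per peak of a scale not given in the sources used here. Per the file headers, the inputs were deposited as raw read counts per chromosome. Unmatched reads, on a row of their own, were left out, which kept 53.4% to 53.5% of the reads. CASAVA 1.8 and the build rn5 are named, without their role, per the submitters' processing notes. The aligner, the peak caller settings and the control behind each list were not given in the sources used here.

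Peaks of SOX9 and SOX6 that shared 1 bp were merged into sites and sites no more than 12500 bp apart were joined, with Python 3.11.15 and pandas 2.3.3. Merging was tested on simulated peaks, and bedtools 2.31.1 gave the same 25523 sites and 784 groups. A mark was counted at a site when a peak shared 1 bp with it. Shares carry 95% Wilson intervals (scipy 1.17.1). The last peak end over the 6 lists stood in for each chromosome's length. Quintiles of score were formed within each list.

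Named groups were the 10 with most sites, the 3 with most sites of a single class, of 3 classes with fewest acetylated sites, and with most H3K9me3 or H3K4me3 sites, and the shortest and longest. The 7 groups without H3K27ac, the stretches of groups, the runs of marks, the score quintiles and the chromosome 8 stretch were chosen after their values were seen. The groups and the rules that name them were chosen with earlier results of these data known. No depth is known for the immunoprecipitations.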

Additional observations from a re-analysis of the deposited data

How the results depend on the processing

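The number of groups moved most. It was 362 at a joining distance of 5000 bp, 1313 at 25000 bp, 198 with SOX peaks above the median score, 446 with sites within 500 bp merged and 382 for groups of 5 or more sites. The last pair of settings was added after the data were seen. The shares of grouped sites moved beyond their intervals as follows. At 5000 bp H3K27ac was at 91.8%, H3K4me1 at 74.1% and H3K4me3 at 58.4%. At 25000 bp co-bound sites were at 38.6%, H3K27ac at 86.5% and H3K4me3 at 45.5%. Above the median score co-bound sites were at 44.7%, H3K27ac at 94.4%, H3K4me1 at 81.1% and H3K4me3 at 54.4%, and the co-bound share of the neighbours of co-bound sites was 52.6%. With peaks narrowed to 400 bp co-bound sites were at 36.7%, H3K4me1 at 77.0% and H3K4me3 at 50.4%, and that neighbour share was 39.2%. Without the 4 chromosomes with most input H3K4me1 was at 77.5% and H3K9me3 at 2.98%. With a mark counted only over the centre of a site, H3K27ac, H3K4me1, H3K4me3 and H3K9me3 were at 88.7%, 71.7%, 44.8% and 3.41%, and with mark peaks above their median score at 82.7%, 72.6%, 30.0% and 2.95%. With sites within 500 bp merged, co-bound sites were at 46.1%, the marks at 88.3%, 83.7%, 43.9% and 5.60%, and the neighbour share at 48.4%. The cause of these shifts was not tested.

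The co-bound share was higher in groups than outside under the 8 alternatives that could move it, and the shares of H3K27ac, H3K4me3 and H3K9me3 under all 10. For H3K9me3 the value outside lay within the interval of the grouped sites at 5000 bp (3.79%, 2.99% to 4.79%, and 3.36%) and without the 4 chromosomes with most input (2.55% outside). The share of H3K4me1 was higher in groups under 9 of the 10, and with SOX peaks above the median score it was 81.1% in groups and 84.8% outside. The largest piece of a named group changed by more than 1.5 times in 14 of 23 at 5000 bp and in 6 of 23 at 25000 bp. No paired analysis was possible because each antibody has 1 library. An absent peak may be binding below the lowest score of a list, and without read depth for the immunoprecipitations this limit has no value.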
